A study of Homo sapiens with 12 samples.

Results

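Proteins bound for the secretory pathway enter the endoplasmic reticulum (ER) through a translocation channel and leave it in coated vesicles, and the transcripts of 38 genes of this machinery are described here. The genes were taken by symbol from both deposited tables. They encode the SRP receptor (2 genes), the Sec61 translocon with SEC62 and SEC63 (5), the translocon-associated protein complex TRAP (4), signal peptidase (5), the COPII coat with its exit-site and fusion partners (12), the COPI coatomer (8) and the p24 cargo receptors TMED2 and TMED10 (2). All 38 were found, out of 10252 genes held by both tables, with 11554 genes listed for SW48 and 11070 for 23132/87.

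The cells were SW48, an established colorectal adenocarcinoma line, and 23132/87, an established gastric adenocarcinoma line, both labelled wild type. Either line was exposed for 48 h to myricone C at 10 µM or to vehicle, which was 0.1% DMSO. The 4 groups were SW48 with myricone C, SW48 with vehicle, 23132/87 with myricone C and 23132/87 with vehicle, each with 3 libraries that the labels call biological replicates. The series title names myricone C as a neolignan of nutmeg (Myristica fragrans) and places it in relation to ER stress, so the comparison asks how the entry and exit machinery of the ER moved with the compound. Each tissue is represented by a single line.

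As background, a ribosome that makes a secretory or membrane protein is brought to the ER by the signal recognition particle (SRP) and its receptor, the chain passes through the Sec61 channel with help from TRAP and SEC63, and signal peptidase removes the signal peptide. COPII coats then bud vesicles from ER exit sites with cargo selected by SEC24 proteins, and COPI coats return escaped ER proteins from the Golgi. When unfolded proteins build up in the ER, the transcription factors XBP1 and ATF6 are known to raise many of these genes in mammalian cells, through promoter elements that share the core ACGTG.

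The deposited values resemble transcript levels scaled to library size and gene length, although their exact unit could not be settled, and the listed values of a library summed to between 464037 and 536594. Both tables list only genes at or above 1 in every library of the line, so a gene that is not listed may be low in a single group. Of 8 general epithelial markers all 8 were listed in both lines; of 10 gastric markers none was listed in SW48 and TFF1 in 23132/87, and of 10 colorectal markers 4 were listed in each line. Of 6 leukocyte, 7 mesenchymal and 4 endothelial markers, SW48 listed ACTA2, and 23132/87 listed CD68 and COL1A1. CD68, a marker of macrophages that other cells also express, stood at 12.9 to 14.8 in 23132/87 myricone C libraries, against 3.95 to 6.48 in 23132/87 vehicle libraries, and rose by 1.22 ± 0.16 (adjusted p 0.000288); the other 5 leukocyte markers were not listed. ACTA2 (-0.13) and COL1A1 (-0.17) were not called. The 8 epithelial markers together stood at 2894 to 4082 in SW48 myricone C libraries, against 1072 to 1857 in SW48 vehicle libraries, and at 3169 to 4249 in 23132/87 myricone C libraries, against 7923 to 10574 in 23132/87 vehicle libraries. KRT8 and KRT18, the keratins that make up most of these sums, rose by 1.19 ± 0.26 and 1.57 ± 0.29 in SW48 (adjusted p 0.0057 and 0.00237) and fell by 1.48 ± 0.19 and 1.60 ± 0.17 in 23132/87 (adjusted p 0.000193 and 8.46e-05). The listed colorectal markers together stood at 19.95 to 27.4 in SW48 myricone C libraries, against 41.1 to 51.6 in SW48 vehicle libraries, and at 185 to 250.5 in 23132/87 myricone C libraries, against 310.1 to 358 in 23132/87 vehicle libraries. TFF1 stood at 135 to 173 in 23132/87 myricone C libraries, against 219 to 346 in 23132/87 vehicle libraries. The part of these markers in the results on the 38 genes was not tested. Mitochondrial pseudogenes held 13.5% to 15.3% of the listed sum in SW48 myricone C libraries, against 16.6% to 18.1% in SW48 vehicle libraries. In 23132/87 they held 13.5% to 14.4% with myricone C, against 13.4% to 15.6% with vehicle. A pair of treated libraries stood apart from their partners. SW48 myricone C replicate 1 held 5.08% of its listed sum in genes of 7SL and small nuclear RNA (0.0473% to 0.201% in every other SW48 library), and it was the lowest of its group for 27 of the 38 genes. 23132/87 myricone C replicate 1 had the lowest listed sum of the 12 libraries and was the highest of its group for 30 of the 38 genes. Results are therefore also given without these libraries.

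In SW48 cells, 18 of the 38 genes rose with myricone C and SEC11A fell, while 19 passed no threshold in either direction. In 23132/87 cells 23 rose and none fell by limma, with 15 not called. The threshold was a Benjamini-Hochberg adjusted p under 0.05 from limma across all listed genes of the line, on log2(value + 1), a scale that understates the change of low genes. Calls were frequent in both tables. In SW48, 10.1% of all listed genes were called higher and 19.2% lower, and in 23132/87 23.3% were called higher and 23.2% lower. The background depends on scaling. In SW48, quantile normalization gave 1515 higher and 1765 lower genes, against 1170 higher and 2213 lower without it. Scaling that left out mitochondrial pseudogenes, 7SL and small nuclear RNA is named reduced scaling here. In 23132/87 it gave 2990 higher and 2067 lower genes, against 2582 and 2571, and 27 of the 38 genes higher, against 23. The median log2 change of the 38 genes was 0.30 in SW48 and 0.41 in 23132/87, beside -0.08 and 0.01 for all listed genes of SW48 and of 23132/87. At an unadjusted p under 0.05, 19 of the 38 were higher and 3 lower in SW48, and 27 higher and 0 lower in 23132/87.

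The 3 treated and 3 vehicle values did not overlap for 25 of the 38 genes in SW48, where 45.3% of all listed genes were apart in this way, and for 27 in 23132/87, where 56.8% were. Without SW48 myricone C replicate 1, 18 genes rose and 1 fell in SW48. Without 23132/87 myricone C replicate 1, 22 rose and 1, SEC23A, fell in 23132/87. Together the 38 genes took 0.538%, 0.619% and 0.629% of the listed sum in SW48 myricone C libraries, against 0.451%, 0.496% and 0.472% in SW48 vehicle libraries. In 23132/87 they took 0.865%, 0.727% and 0.707% with myricone C, against 0.514%, 0.514% and 0.535% with vehicle. Because values are relative to each library, a larger share of the transcripts and a loss of other RNA cannot be told apart, and neither can fewer cells of a kind and less RNA per cell.

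**Figure D1:**
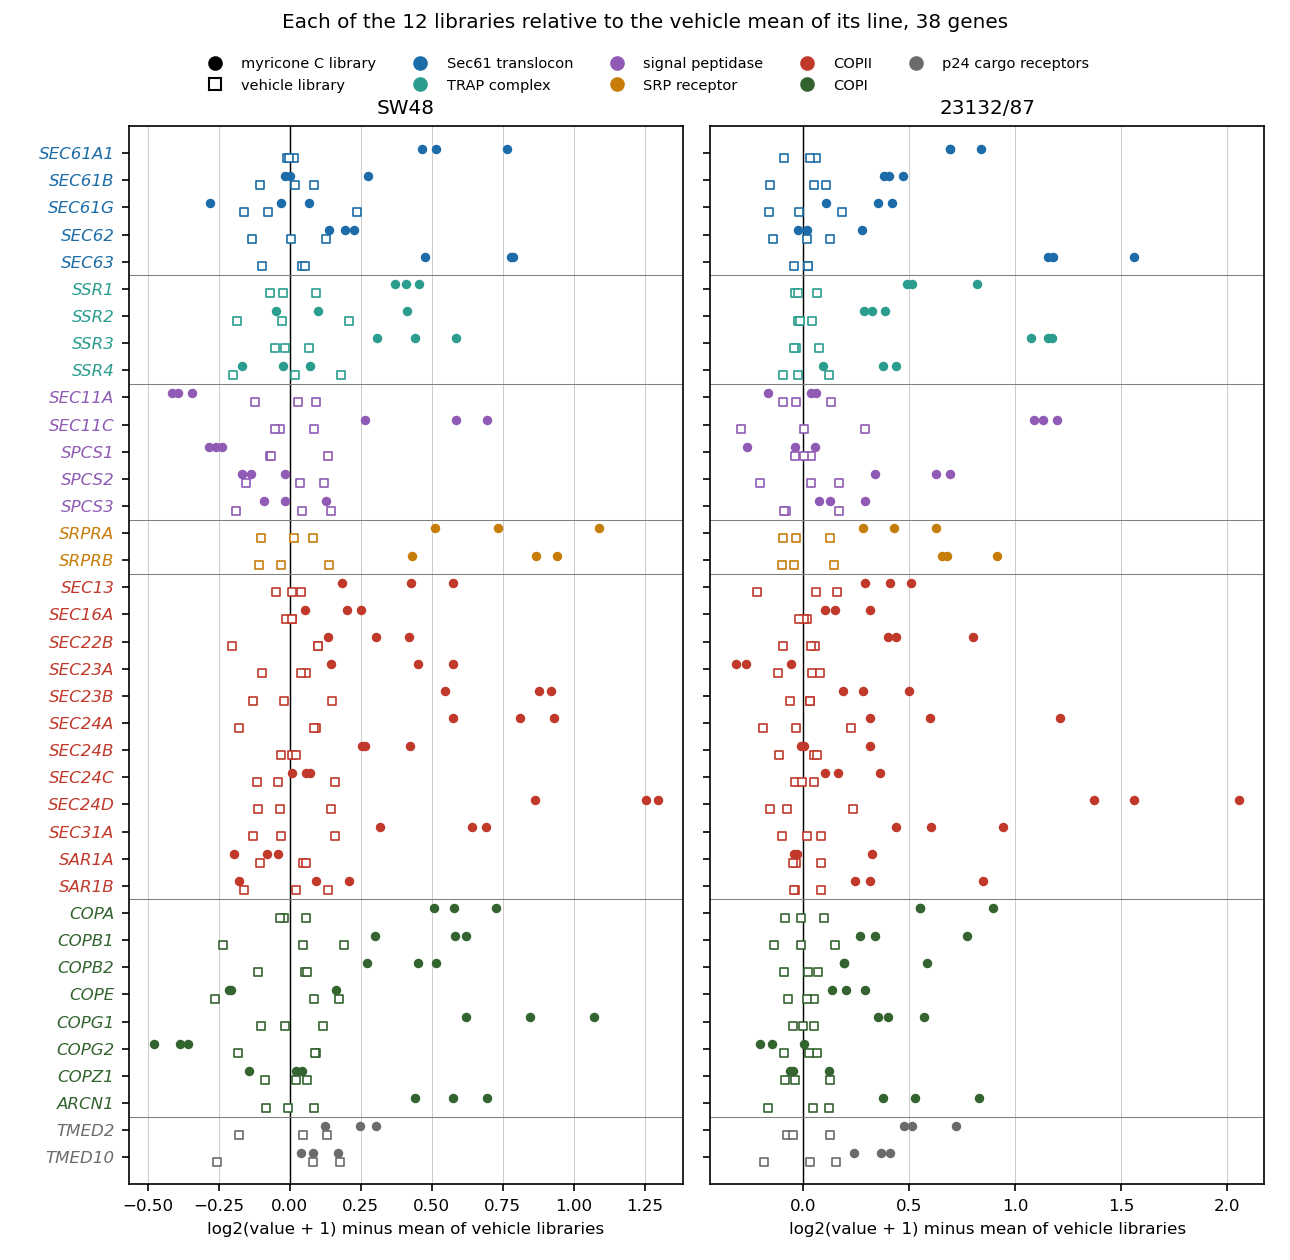
Each point is 1 library of SW48 (left) or 23132/87 (right), as log2(value + 1) minus the mean of the 3 vehicle libraries of the line; filled circles are myricone C, open squares vehicle, and colours mark the complexes. SEC24D lies farthest to the right in both panels, with 3 treated libraries apart from the vehicle libraries.

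The genes called higher in both lines were 16: SEC61A1, SEC63, SSR1, SSR3, SEC11C, SRPRA, SRPRB, SEC13, SEC23B, SEC24A, SEC24D, SEC31A, COPA, COPB1, COPG1 and ARCN1. A further 7, SEC61B, SSR2, SPCS2, SEC22B, SAR1B, TMED2 and TMED10, were called in 23132/87 and not in SW48, and SEC23A and COPB2 were called higher in SW48 and not in 23132/87. The remaining 12 were called in neither line: SEC61G, SEC62, SSR4, SPCS1, SPCS3, SEC16A, SEC24B, SEC24C, SAR1A, COPE, COPG2 and COPZ1. Across the 38 genes, which are not independent replicates, the SW48 and 23132/87 changes had a Pearson r of 0.69 and a Spearman rho of 0.69, beside 0.63 and 0.61 over all 10252 shared genes.

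**Figure D2:**
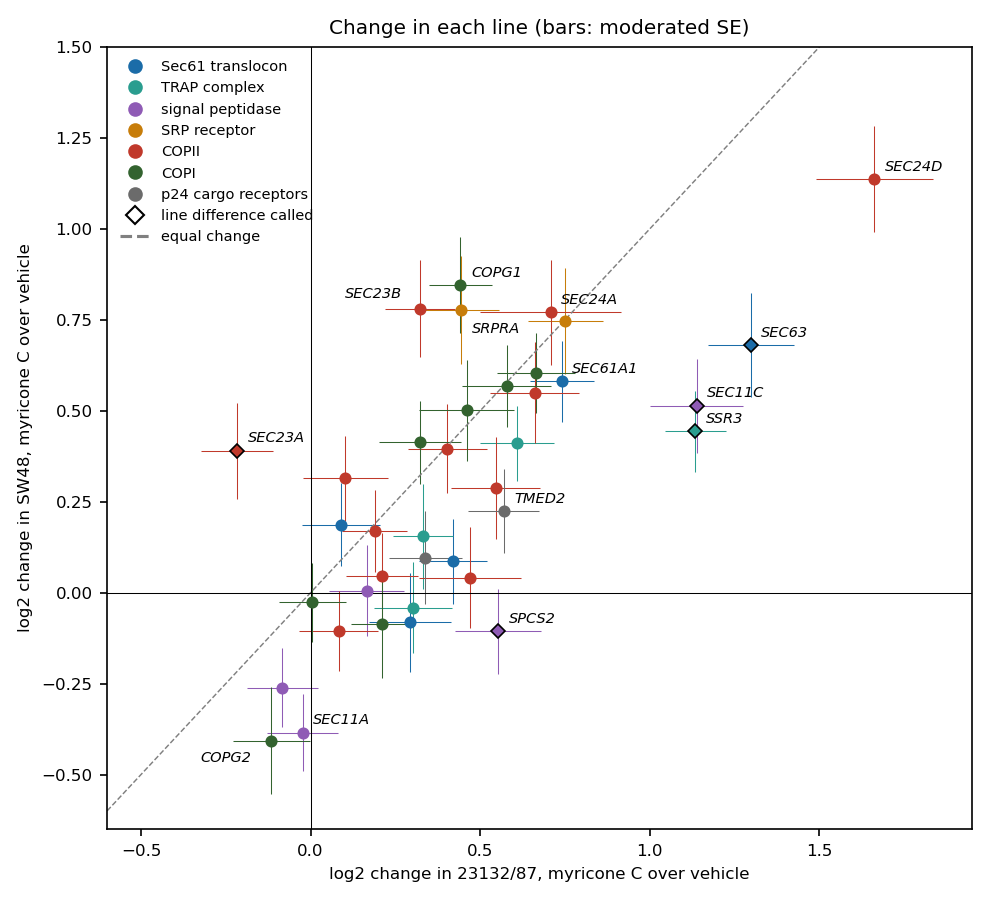
Log2 change in SW48 (vertical) against the change in 23132/87 (horizontal) for the 38 genes, with bars of 1 moderated standard error; black-edged diamonds mark the 5 genes with a called line-by-treatment term. Most points lie right of or above 0, and SEC63, SSR3, SEC11C and SPCS2 lie below the dashed line of equal change while SEC23A lies above it.

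Promoters are shown next because several of these genes carry the unfolded protein response element TGACGTGG, a site known to be bound by XBP1 and ATF6. RefSeq promoter windows, which run from 250 bases before to 50 bases after each listed start on GRCh38.p14, were held for 35 of the 38 genes, all but SPCS1, SRPRA and SEC24D. The letters TGACGTGG, searched on both strands, were found in 9 of these 35 genes (25.7%), beside 0.927% of all 27305 genes with a window. The shares over all genes in this paragraph include genes listed in neither line, while the 35 are all listed. Of genes listed with a window, 113 held TGACGTGG and 9044 did not in SW48, and 105 and 8699 in 23132/87, the 35 included. The shorter core ACGTG, which lies inside TGACGTGG, was found in 27 of the 35 (77.1%), against 24.9% of all genes. The longer ER stress response element ERSE, CCAAT and CCACG with 9 bases between them, was found in none of the 35 and in 0.0916% of all genes, and the ATF4 element TGATGNAAN was found in SRPRB alone (2.86%, against 4.45% of all genes). A match describes these letters only and shows no binding.

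Each of the 10 TGACGTGG sites is printed below in 30 bases, 5′ to 3′ on the strand that reads TGACGTGG, with the element in capitals.
COPA, chr1:160343227-160343256, minus strand: gagagggtcgcTGACGTGGaggcgtccgaa
COPB1, chr11:14499841-14499870, plus strand: gagtccttggcTGACGTGGaagggggtggg
COPB2, chr3:139389825-139389854, plus strand: actaagggccgTGACGTGGtgccgctgagc
COPB2, chr3:139389632-139389661, plus strand: gtcagactgacTGACGTGGaacttccggga
SEC16A, chr9:136484707-136484736, plus strand: ttcagtccggcTGACGTGGcaccagggcca
SEC23A, chr14:39103221-39103250, minus strand: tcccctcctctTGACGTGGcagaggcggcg
SEC24A, chr5:134648595-134648624, plus strand: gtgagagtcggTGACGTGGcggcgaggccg
SEC62, chr3:169966779-169966808, minus strand: ccggttccctcTGACGTGGagcgaggaggg
SSR3, chr3:156554148-156554177, plus strand: agtttccttgcTGACGTGGctgttatcaga
SSR4, chrX:153794528-153794557, minus strand: tctggcagcacTGACGTGGcccctccctga
With COPB2 counted from the first of its 2 listed starts, the sites lie between 179 bases before a start (SEC24A) and 30 bases after one (the second COPB2 site). The SSR3 site lies 41 bases before the most internal of its 3 listed starts, and the windows of its other starts hold none. SEC16A and SSR4 also have other listed starts whose windows hold none. The SEC16A site belongs to its most upstream listed start and the SSR4 site to its more internal one.

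By complex, 3 of 8 COPI genes, 3 of 11 COPII genes, 2 of 4 TRAP genes and 1 of 5 Sec61 genes carried the element, and none of 4 signal peptidase, 1 SRP receptor and 2 p24 genes did. Of the 9 genes with it, 6 rose in SW48 (SSR3, SEC23A, SEC24A, COPA, COPB1 and COPB2) and 4 rose in 23132/87 (SSR3, SEC24A, COPA and COPB1). Of the 26 with a window and no such site, 10 rose in SW48 and 17 in 23132/87. The 2 groups of genes were not tested against each other.

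The SRP receptor docks the ribosome and its SRP at the ER membrane, and both of its genes rose in both lines. SRPRA encodes the SRP-binding alpha subunit. Its values were 38.6, 45.1 and 58.0 in SW48 myricone C libraries, against 27.1, 24.9 and 28.4 in SW48 vehicle libraries, a log2 change of 0.78 ± 0.15 (moderated SE, adjusted p 0.003). In 23132/87 they were 146, 128 and 115 with myricone C, against 104, 92.4 and 88.5 with vehicle (0.44 ± 0.11, adjusted p 0.00915). The groups did not overlap in either line, and the SW48 vehicle mean was 0.283 of the 23132/87 vehicle mean, a level that is described only, since the tables were deposited separately. SRPRB encodes the membrane-anchored beta subunit, a GTPase. Its values were 47.7, 64.9 and 68.3 in SW48 myricone C libraries, against 34.3, 32.5 and 38.8 in SW48 vehicle libraries (0.75 ± 0.15, adjusted p 0.00343). In 23132/87, SRPRB stood at 65.8, 54.8 and 55.7 with myricone C, against 32.0, 33.3 and 38.2 with vehicle (0.75 ± 0.11, adjusted p 0.000468). The log2 change of SRPRB was therefore equal to 2 decimals in both lines, while SRPRA had a line difference of 0.33, which was not called. SRPRA shares 1.63% of its exon bases with FAM118B and 2.16% with FOXRED1 on the opposite strand.

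In the Sec61 translocon, SEC61A1 and SEC63 rose in both lines, SEC61B rose in 23132/87, and SEC62 and SEC61G were called in neither. SEC61A1 (chr3:128051641-128071683 in GENCODE 29 on GRCh38, plus strand) encodes the channel itself. SEC61A1 was at 189, 196 and 233 in SW48 myricone C libraries, against 138, 136 and 136 in SW48 vehicle libraries (log2 change 0.58 ± 0.11, adjusted p 0.0031). In 23132/87 it was at 196, 176 and 176 with myricone C, against 113, 111 and 102 with vehicle (0.74 ± 0.09, adjusted p 0.000201). The lowest treated library stood above the highest vehicle library in each line. SEC61A1 shares 7.32% of its exon bases with RUVBL1 on the opposite strand, and the strand setting of the counting is not given in the sources used here.

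SEC63 encodes a J-domain membrane protein that couples the ER chaperone HSPA5 (BiP) to the channel. SEC63 (chr6:107867756-107958189, minus strand) had 6.79, 8.67 and 8.62 in SW48 myricone C libraries, against 4.24, 4.78 and 4.82 in SW48 vehicle libraries (0.68 ± 0.14, adjusted p 0.00506). In 23132/87 the values were 32.6, 24.8 and 24.4 with myricone C, against 10.6, 10.1 and 10.6 with vehicle (1.30 ± 0.13, adjusted p 4.53e-05). Treated and vehicle libraries were apart in both lines. On value + 1, the log2 change corresponds to a fold of 1.6 in SW48 and 2.46 in 23132/87. Mean values were 8.03 with myricone C and 4.61 with vehicle in SW48, and 27.3 and 10.4 in 23132/87. The other channel subunits are small membrane proteins. SEC61B, the beta subunit, had a log2 change of 0.09 in SW48 and rose by 0.42 ± 0.10 in 23132/87 (adjusted p 0.00673), where it was at 164, 167 and 175 with myricone C, against 130.3, 113 and 135 with vehicle. SEC61G, the gamma subunit, had changes of -0.08 in SW48 and 0.29 in 23132/87 (adjusted p 0.073); in 23132/87 it was called higher without myricone C replicate 3 (0.39) or vehicle replicate 3 (0.38). SEC62, a partner of SEC63 in post-translational import, had changes of 0.19 in SW48 and 0.09 in 23132/87, and its promoter holds TGACGTGG.

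TRAP sits beside the channel and assists the entry of some signal sequences. Its alpha and gamma subunits, SSR1 and SSR3, rose in both lines, the beta subunit SSR2 rose in 23132/87, and the delta subunit SSR4 was called in neither. SSR3 (chr3:156540140-156555184, minus strand) had 120.4, 132 and 146 in SW48 myricone C libraries, against 95.9, 102 and 93.8 in SW48 vehicle libraries (0.44 ± 0.11, adjusted p 0.012). In 23132/87 it had 263, 267 and 248 with myricone C, against 124, 115 and 114 with vehicle (1.13 ± 0.09, adjusted p 1.19e-05). Treated and vehicle libraries were apart in both lines. The log2 change corresponds to a fold of 1.36 in SW48 and 2.2 in 23132/87, on value + 1. The SW48 call of SSR3 was lost without vehicle replicate 3, at 0.42.

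SSR1 had 129, 125 and 122 in SW48 myricone C libraries, against 89.4, 92.2 and 100.01 in SW48 vehicle libraries (0.41 ± 0.10, adjusted p 0.0122). In 23132/87 SSR1 had 176, 139.9 and 142 with myricone C, against 96.5, 97.5 and 104 with vehicle (0.61 ± 0.11, adjusted p 0.00146). Treated libraries were above all vehicle libraries in both lines. SSR2 had a log2 change of 0.16 in SW48 and rose by 0.33 ± 0.09 in 23132/87 (adjusted p 0.0124), and it was no longer called without 23132/87 myricone C replicate 2 (0.30) or vehicle replicate 2 (0.32). SSR4 had changes of -0.04 in SW48 and 0.30 in 23132/87 (adjusted p 0.0523), and it was called higher in 23132/87 without myricone C replicate 1, at 0.41. SSR4 shares 6.06% of its exon bases with IDH3G on the opposite strand.

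Signal peptidase had called changes in both directions in SW48. SEC11A and SEC11C encode its alternative catalytic subunits, and SPCS1, SPCS2 and SPCS3 its accessory subunits. SEC11C (chr18:59139477-59158836, plus strand) had 57.4, 71.9 and 77.7 in SW48 myricone C libraries, against 46.5, 45.9 and 50.6 in SW48 vehicle libraries (0.51 ± 0.13, adjusted p 0.0124). In 23132/87 it had 168, 156 and 160.3 with myricone C, against 59.1, 72.8 and 89.1 with vehicle (1.14 ± 0.14, adjusted p 0.000147). SEC11C rose in both lines with no overlap between treated and vehicle libraries, and its SW48 call was lost without myricone C replicate 3, at 0.42.

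SEC11A (chr15:84669538-84716716, minus strand), the other catalytic subunit, had 94.5, 93.2 and 97.8 in SW48 myricone C libraries, against 114, 133 and 127 in SW48 vehicle libraries. It fell by 0.38 ± 0.11 on the log2 scale (adjusted p 0.0193), with all treated libraries below all vehicle libraries, and it was the member called lower in SW48. The call was lost without SW48 myricone C replicate 2 (-0.37), vehicle replicate 2 (-0.34) or vehicle replicate 3 (-0.37). In 23132/87 the SEC11A values were 87.1, 102 and 100.3 with myricone C, against 95.5, 91.6 and 107 with vehicle, overlapping, with a change of -0.02.

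SPCS2 had 52.1, 57.9 and 53.3 in SW48 myricone C libraries, against 63.8, 60.1 and 52.6 in SW48 vehicle libraries, which overlapped, with a change of -0.11. In 23132/87 SPCS2 had 99, 77.4 and 94.7 with myricone C, against 52.8, 68.6 and 62.6 with vehicle, and rose by 0.55 ± 0.13 (adjusted p 0.00596). The SPCS2 values are uncertain because a pseudogene copy, SPCS2P4, is listed in both tables and how reads were shared between them is not given in the sources used here. SPCS1 had changes of -0.26 in SW48 (adjusted p 0.0928) and -0.08 in 23132/87, and it shares 50.7% of its exon bases with NEK4 and 7.46% with GLT8D1 on the opposite strand. SPCS3 had changes of 0.01 in SW48 and 0.16 in 23132/87, neither called.

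COPII builds the vesicles that leave the ER, and 6 of its 12 genes rose in SW48 and 7 in 23132/87. None was called lower by limma, also at an unadjusted p under 0.05. The median log2 change over the 12 was 0.35 in SW48 and 0.36 in 23132/87. The cargo adaptor SEC24D (chr4:118722823-118838683, minus strand) had the largest change of the 38 genes in both lines. Its values were 21.9, 29 and 29.9 in SW48 myricone C libraries, against 10.6, 12.9 and 11.3 in SW48 vehicle libraries (1.14 ± 0.15, adjusted p 0.000383). In 23132/87 SEC24D had 92.4, 65.2 and 57.0 with myricone C, against 19.1, 20.3 and 25.4 with vehicle (1.66 ± 0.17, adjusted p 6.43e-05). Every treated library was above every vehicle library. On value + 1, the log2 change corresponds to a fold of 2.2 in SW48 and 3.17 in 23132/87. Mean values were 26.9 with myricone C and 11.6 with vehicle in SW48, and 71.5 and 21.6 in 23132/87. SEC24D ranked above 98.2% of listed genes by change in SW48 and above 99.3% in 23132/87.

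The 4 SEC24 paralogs choose different cargo, and SEC24A rose in both lines beside SEC24D. SEC24A had 12.5, 16.3 and 14.9 in SW48 myricone C libraries, against 7.01, 8.67 and 8.61 in SW48 vehicle libraries (0.77 ± 0.14, adjusted p 0.00268). In 23132/87 SEC24A had 26.9, 17.3 and 14.02 with myricone C, against 9.57, 10.8 and 13.1 with vehicle (0.71 ± 0.21, adjusted p 0.0192). The groups were apart in both lines, but in 23132/87 replicate 1 of the treated libraries was far above its partners, and without it the change was 0.46. Excluding vehicle replicate 1 (0.61) or vehicle replicate 2 (0.69) ended that 23132/87 call. SEC24B had changes of 0.31 in SW48 (adjusted p 0.0647) and 0.10 in 23132/87, and SEC24C of 0.05 in SW48 and 0.21 in 23132/87. None of these SEC24B and SEC24C values was called. In SW48, however, SEC24B was called higher with quantile, median-centred or reduced scaling (0.37, 0.36 and 0.38). The same held with the minimum of 10 or with all 12 libraries in 1 fit (0.31 in both). SEC24A shares 5.35% of its exon bases with SAR1B, a head-to-head neighbour on the opposite strand.

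SEC23 is the partner of SEC24 in the inner coat and stimulates the GTPase SAR1. SEC23B had 61.3, 79.6 and 77.4 in SW48 myricone C libraries, against 41.1, 38.01 and 46.3 in SW48 vehicle libraries (0.78 ± 0.13, adjusted p 0.00156). In 23132/87 SEC23B had 157, 135 and 127 with myricone C, against 106, 114 and 113 with vehicle (0.32 ± 0.10, adjusted p 0.0279). SEC23B rose in both lines with groups apart, and its 23132/87 call ended without myricone C replicate 1 (0.23) or 2 (0.34) or vehicle replicate 1 (0.29) or 2 (0.34). The paralog SEC23A had 38.1, 51.7 and 47.4 in SW48 myricone C libraries, against 32.1, 35.8 and 35.3 in SW48 vehicle libraries (0.39 ± 0.13, adjusted p 0.0456). In 23132/87 SEC23A had 35.8, 30.8 and 29.7 with myricone C, against 34.3, 38.4 and 39.5 with vehicle, a change of -0.22 that was not called (adjusted p 0.123) and overlapped. Its SW48 call held only without myricone C replicate 1 among the 6 exclusions, and was lost without myricone C replicate 2 (0.30) or 3 (0.36) and without vehicle replicate 1 (0.34), 2 (0.42) or 3 (0.41). In 23132/87 it was called lower without myricone C replicate 1, at -0.30.

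The outer coat of COPII is a cage of SEC13 and SEC31. SEC31A had 23.4, 29.5 and 30.6 in SW48 myricone C libraries, against 16.9, 20.9 and 18.1 in SW48 vehicle libraries (0.55 ± 0.14, adjusted p 0.0128). In 23132/87 SEC31A had 62.9, 49.5 and 44.1 with myricone C, against 30.02, 32.7 and 34.3 with vehicle (0.66 ± 0.13, adjusted p 0.00264). Groups were apart in both lines; the SW48 call was lost without myricone C replicate 2 (0.50) or 3 (0.48), and SEC31A shares 5.27% of its exon bases with THAP9-AS1 on the same strand. SEC13, which also serves nuclear pores, rose by 0.40 ± 0.12 in SW48 (adjusted p 0.0304) and by 0.40 ± 0.12 in 23132/87 (adjusted p 0.0174). The SW48 call of SEC13 was lost without myricone C replicate 2 (0.38) or 3 (0.31) or vehicle replicate 1 (0.42), 2 (0.40) or 3 (0.37), and the 23132/87 call without vehicle replicate 3 (0.29).

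Of the COPII partners, SEC22B, a SNARE of ER-Golgi vesicles, had a change of 0.29 in SW48 (adjusted p 0.147) and rose by 0.55 ± 0.13 in 23132/87 (adjusted p 0.00754), with 19.3, 14.7 and 14.3 in myricone C libraries, against 9.89, 11.1 and 10.9 in vehicle libraries of 23132/87. SEC16A, the scaffold of ER exit sites, had changes of 0.17 in SW48 and 0.19 in 23132/87, neither called. SAR1A and SAR1B encode the GTPases that start coat assembly. SAR1A had changes of -0.11 in SW48 and 0.08 in 23132/87. SAR1B had a change of 0.04 in SW48 and rose by 0.47 ± 0.15 in 23132/87 (adjusted p 0.0274), with 64.8, 44.5 and 42.3 in myricone C libraries, against 34.5, 34.4 and 37.8 in vehicle libraries. Its treated replicate 1 was far above the others, and the 23132/87 change was 0.28 without that library; the call was lost without vehicle replicate 1 (0.45) or 2 (0.45).

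**Figure D3:**
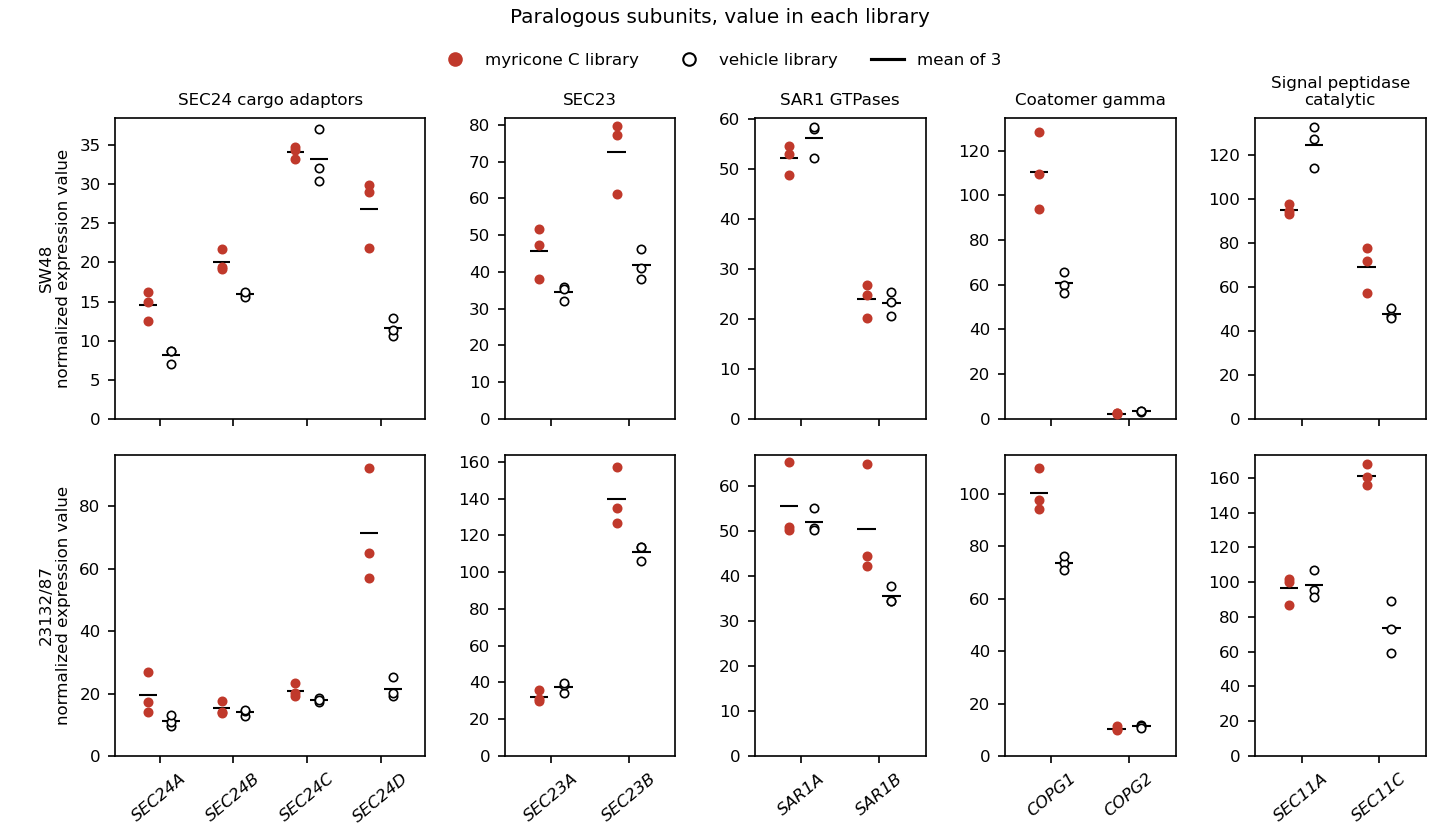
Deposited normalized value in each library for the SEC24, SEC23, SAR1, coatomer gamma and signal peptidase catalytic paralogs, in SW48 (top) and 23132/87 (bottom); filled points are myricone C libraries, open points vehicle libraries and bars the mean of 3. In both lines SEC24D, SEC23B, COPG1 and SEC11C show treated points above the vehicle points, and the paralogs SEC24C, SAR1A and COPG2 show no called change.

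COPI returns ER proteins from the Golgi, and 5 of its 8 genes rose in SW48 and 4 in 23132/87. None was called lower by limma, and 1 in SW48, COPG2, was lower at an unadjusted p under 0.05. The median log2 change over the 8 was 0.46 in SW48 and 0.38 in 23132/87. COPG1, 1 of 2 gamma subunit paralogs, had 93.7, 109.6 and 128 in SW48 myricone C libraries, against 59.8, 65.8 and 56.5 in SW48 vehicle libraries (0.85 ± 0.13, adjusted p 0.000988). In 23132/87 COPG1 had 110.0, 97.6 and 94.3 with myricone C, against 73.6, 76.3 and 71.2 with vehicle (0.44 ± 0.09, adjusted p 0.00391). The groups were apart in both lines. Its paralog COPG2 had 2.35, 2.15 and 2.42 in SW48 myricone C libraries, against 2.86, 3.68 and 3.66 in SW48 vehicle libraries, a change of -0.41 that was not called (adjusted p 0.0582). In 23132/87 COPG2 had 10.2, 11.4 and 9.75 with myricone C, against 11.9, 11.6 and 10.6 with vehicle (-0.12), which overlapped. In SW48, COPG2 was called lower without vehicle replicate 1, at -0.50, and the gene shares 5.51% of its exon bases with MEST on the opposite strand.

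COPA (chr1:160288686-160343400, minus strand) encodes the alpha subunit, which binds the retrieval signals of cargo. COPA had 62.0, 65.3 and 72.4 in SW48 myricone C libraries, against 42.7, 45.1 and 42.3 in SW48 vehicle libraries (0.60 ± 0.11, adjusted p 0.00231). In 23132/87 COPA had 143, 113 and 112 with myricone C, against 72.1, 81.8 and 75.9 with vehicle (0.67 ± 0.12, adjusted p 0.00124). Treated and vehicle libraries were apart in both lines. ARCN1, the delta subunit, had 84.1, 100.4 and 92.4 in SW48 myricone C libraries, against 58.3, 61.5 and 65.6 in SW48 vehicle libraries (0.57 ± 0.11, adjusted p 0.00355). In 23132/87 ARCN1 had 97.2, 78.5 and 70.7 with myricone C, against 48.2, 55.9 and 59.1 with vehicle (0.58 ± 0.13, adjusted p 0.00532). ARCN1 too had no overlap between treated and vehicle libraries.

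The beta subunits COPB1 and COPB2 have promoters that hold TGACGTGG, and both rose in SW48. COPB1 rose by 0.50 ± 0.14 in SW48 (adjusted p 0.0202) and by 0.46 ± 0.14 in 23132/87 (adjusted p 0.0219). In 23132/87 its values were 106, 78.2 and 74.3 with myricone C, against 55.8, 61.1 and 68.3 with vehicle; the change was 0.30 without myricone C replicate 1, and the call was lost without vehicle replicate 1 (0.39) or 2 (0.45). In SW48 the COPB1 call was lost without myricone C replicate 2 (0.44) or 3 (0.46) or vehicle replicate 1 (0.38) or 3 (0.52). COPB2 rose by 0.41 ± 0.11 in SW48 (adjusted p 0.0192), lost without myricone C replicate 2 (0.36) or 3 (0.39) or vehicle replicate 1 (0.36). In 23132/87 COPB2 had a change of 0.32 (adjusted p 0.0504). It was called higher there without myricone C replicate 3 (0.39) and with quantile or reduced scaling (0.48 and 0.41). The same held with the minimum of 10 or all 12 libraries in 1 fit (0.32 in both), and with array weights (0.22). COPE, the epsilon subunit, had changes of -0.09 in SW48 and 0.21 in 23132/87 (adjusted p 0.082), and COPZ1, the zeta subunit, of -0.03 in SW48 and 0.00 in 23132/87.

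TMED2 and TMED10 form p24 complexes that travel between ER and Golgi and are carried by both coats. TMED2 had 148, 168 and 161 in SW48 myricone C libraries, against 119.7, 140.2 and 148 in SW48 vehicle libraries, a change of 0.22 that was not called. In 23132/87 TMED2 had 241, 208 and 203 with myricone C, against 138, 141 and 159 with vehicle, and rose by 0.57 ± 0.11 (adjusted p 0.0018). TMED10 had a change of 0.10 in SW48 and rose by 0.34 ± 0.11 in 23132/87 (adjusted p 0.0274), with 109.6, 107 and 97.5 in myricone C libraries, against 91.7, 72.4 and 84.3 in vehicle libraries. The TMED10 call was lost without 23132/87 myricone C replicate 1 (0.30), myricone C replicate 2 (0.32) or vehicle replicate 2 (0.25).

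In a joint fit of the 12 libraries the line-by-treatment term, the change in SW48 less that in 23132/87, was called for 5 of the 38 genes, or 13.2%, beside 12.8% of all shared genes. The share is close to that over all genes, so the count is no result about the 38. The change was lower in SW48 for SEC63, SSR3, SEC11C and SPCS2, and higher for SEC23A. In the same fit 7.43% of the 10252 shared genes were called lower and 5.34% higher, and quantile normalization turned these 762 lower and 547 higher genes into 557 lower and 666 higher. The difference was -0.69 ± 0.13 for SSR3 (adjusted p 0.00458), -0.66 ± 0.17 for SPCS2 (adjusted p 0.0227) and -0.62 ± 0.19 for SEC63 (adjusted p 0.0408). It was -0.62 ± 0.20 for SEC11C (adjusted p 0.0485) and 0.61 ± 0.17 for SEC23A (adjusted p 0.0301). Over the 38 genes the term was negative for 29, with a median of -0.17 beside -0.09 for all shared genes. Without 23132/87 myricone C replicate 1, the library highest of its group for most of the 38, these medians were -0.09 and -0.08. Without SW48 myricone C replicate 1 they were -0.16 and -0.09. Most shared genes were negative too, since 58.8% of them had a term at or below the -0.0039 of SRPRB.

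The SSR3 difference was called whichever single library was left out. The SPCS2 call was lost without SW48 vehicle replicate 2 (-0.64), 23132/87 myricone C replicate 3 (-0.62) or 23132/87 vehicle replicate 1 (-0.56). The SEC63 call was lost without SW48 myricone C replicate 1 (-0.51), SW48 vehicle replicate 2 (-0.60) or 3 (-0.59), 23132/87 myricone C replicate 1 (-0.49) or 2 (-0.68), or 23132/87 vehicle replicate 1 (-0.63), 2 (-0.60) or 3 (-0.63). For SEC11C the call was lost without SW48 myricone C replicate 1 (-0.50) or 2 (-0.66), SW48 vehicle replicate 1 (-0.64), 2 (-0.65) or 3 (-0.58), 23132/87 myricone C replicate 1 (-0.60), 2 (-0.65) or 3 (-0.63), or 23132/87 vehicle replicate 1 (-0.48) or 2 (-0.63). For SEC23A it was lost without SW48 myricone C replicate 2 (0.52) or 3 (0.58), SW48 vehicle replicate 1 (0.56), 23132/87 myricone C replicate 2 (0.58) or 3 (0.56), or 23132/87 vehicle replicate 2 (0.59) or 3 (0.57). The differences of SEC23B (0.46, adjusted p 0.0876) and COPG1 (0.40, adjusted p 0.116) were not called. SEC23B was called higher without SW48 myricone C replicate 1 (0.58) or 23132/87 myricone C replicate 1 (0.55), and COPG1 without SW48 myricone C replicate 1 (0.52).

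The 5 called genes came from the translocation side for 4 members and from COPII for SEC23A. Over all 16 genes of the SRP receptor, Sec61, TRAP and signal peptidase, the term was negative for 14, with a median of -0.27. Over the 22 COPII, COPI and p24 genes it was negative for 15, with a median of -0.05. Both medians rest on all libraries, and neither was computed with a library left out. Beside these counts, 58.8% of all shared genes had a term at or below -0.0039. The 2 sides were not tested against each other. The COPI genes had a median difference of -0.02, with 5 of 8 negative and none called, and the COPII genes one of -0.07, with 8 of 12 negative. In vehicle cells SEC63 in SW48 was at 0.443 of its 23132/87 mean, SEC11C at 0.647, SSR3 at 0.826, SPCS2 at 0.96 and SEC23A at 0.92, values that are described without a test because the tables were deposited separately.

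Other genes of the same pathway, listed by complex, were called in both directions. Of 99 such genes in SW48, 19.2% were called higher and 16.2% lower, beside 10.1% and 19.2% of all listed genes. Of 98 in 23132/87, 37.8% were called higher and 16.3% lower, beside 23.3% and 23.2% of all listed genes. Counts of single lists below rest on few genes, use all libraries of a line and were not tested against these shares. The SRP itself split. SRP9 and SRP14, which form its Alu-domain heterodimer, fell in both lines, SRP9 by 0.92 ± 0.12 in SW48 (adjusted p 0.000429) and by 0.66 ± 0.11 in 23132/87 (adjusted p 0.00105), and SRP14 by 0.78 ± 0.13 in SW48 (adjusted p 0.00141) and by 0.78 ± 0.11 in 23132/87 (adjusted p 0.000426). SRP72, a subunit of the larger domain, rose by 0.87 ± 0.11 in 23132/87 (adjusted p 0.000185). In all, 1 of 6 SRP genes rose and 2 fell in SW48, and 3 rose and 2 fell in 23132/87, while both genes of the receptor rose in both lines.

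Of 7 translocon partners, 1 rose and 1 fell in SW48, and 2 rose and 1 fell in 23132/87. HM13, the signal peptide peptidase that clears cut signal peptides, rose by 0.63 ± 0.12 in SW48 (adjusted p 0.00249) and by 0.66 ± 0.11 in 23132/87 (adjusted p 0.00111), and TRAM1, which contacts incoming chains, rose by 0.66 ± 0.11 in 23132/87 (adjusted p 0.000826). TMCO1, a partner of the channel for membrane proteins, fell by 0.38 ± 0.13 in SW48 (adjusted p 0.0448), a call lost without SW48 myricone C replicate 1 (-0.39) or 2 (-0.28) or vehicle replicate 1 (-0.38) or 3 (-0.32).

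The oligosaccharyltransferase, which adds N-glycans beside the channel, had 0 of 12 genes higher and 3 lower in SW48 by limma (3 higher and 4 lower at an unadjusted p under 0.05), and 4 of 11 higher and 1 lower in 23132/87. Its subunit TUSC3 fell by 0.80 ± 0.16 in SW48 (adjusted p 0.00383) and OST4 by 0.77 ± 0.12 (adjusted p 0.000877). OSTC rose by 0.78 ± 0.11 in 23132/87 (adjusted p 0.000328) and the catalytic subunit STT3A by 0.54 ± 0.09 (adjusted p 0.000876). In SW48, STT3A (0.38) and the subunit KRTCAP2 (0.44) were called higher without myricone C replicate 1. The subunit RPN2, called lower in SW48 (-0.41), lost its call without myricone C replicate 2 (-0.32) or vehicle replicate 2 (-0.37) or 3 (-0.43). The ER membrane protein complex and the GET pathway, which insert membrane proteins by other routes, had 0 of 16 genes higher and 3 lower in SW48 by limma (0 and 5 at an unadjusted p under 0.05), and 1 higher and 4 lower in 23132/87. The lower share of this list was 18.8% in SW48 and 25% in 23132/87, near the 19.2% and 23.2% of all listed genes. EMC10 fell by 0.76 ± 0.14 in SW48 (adjusted p 0.00212) and by 0.58 ± 0.17 in 23132/87 (adjusted p 0.0174), and the GET receptor gene CAMLG rose by 0.78 ± 0.12 in 23132/87 (adjusted p 0.000661). The 23132/87 change of EMC10 was -0.39 without myricone C replicate 1, and its call was lost without vehicle replicate 2 (-0.49). GET1, the partner of CAMLG, fell by 0.69 ± 0.21 in SW48 (adjusted p 0.0308), lost without myricone C replicate 2 (-0.48) or 3 (-0.69) or vehicle replicate 2 (-0.59) or 3 (-0.62).

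Among 12 exit-site factors of COPII, 2 rose and 1 fell in SW48, and 6 rose and 1 fell in 23132/87. MIA2, which helps load large cargo such as procollagen and lipoprotein at exit sites, rose by 1.62 ± 0.18 in SW48 (adjusted p 0.000201) and by 1.68 ± 0.11 in 23132/87 (adjusted p 5.36e-06). TRAPPC1, a subunit of the TRAPP tethering complexes, fell by 1.17 ± 0.13 in SW48 (adjusted p 0.00021) and by 0.84 ± 0.11 in 23132/87 (adjusted p 0.000226). Of 17 other p24 proteins and cargo receptors, 3 rose and 2 fell in SW48, and 5 rose and 3 fell in 23132/87. The cargo lectin LMAN1 rose by 0.62 ± 0.13 in SW48 (adjusted p 0.00389) and by 0.82 ± 0.15 in 23132/87 (adjusted p 0.00156), and its partner MCFD2 rose by 0.84 ± 0.13 in 23132/87 (adjusted p 0.000785). ERGIC1, a protein of the ER-Golgi intermediate compartment, fell by 0.44 ± 0.13 in SW48 (adjusted p 0.0213), lost without myricone C replicate 2 (-0.35) or 3 (-0.44) or vehicle replicate 1 (-0.40) or 3 (-0.44).

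The ARF cycle sets COPI on membranes, and with the KDEL receptors it had 5 of 11 genes higher and 2 lower in SW48, and 4 higher and 2 lower in 23132/87. In SW48 the GTPases ARF5 and ARF3 fell by 0.87 ± 0.14 (adjusted p 0.00101) and 0.64 ± 0.15 (adjusted p 0.00821). In 23132/87 the GTPase-activating protein ARFGAP3 rose by 0.94 ± 0.12 (adjusted p 0.000254) and ARF4 by 0.74 ± 0.13 (adjusted p 0.00144). Of 18 tethers and SNAREs of ER-Golgi transport, 7 rose and 2 fell in SW48, and 12 rose and 2 fell in 23132/87. The SNAREs STX5 and BET1 rose by 1.21 ± 0.12 (adjusted p 4.18e-05) and 1.14 ± 0.14 (adjusted p 0.00019) in 23132/87, and BET1L rose by 1.05 ± 0.18 in SW48 (adjusted p 0.00171). RAB1B, a GTPase of this step, fell by 1.09 ± 0.14 in SW48 (adjusted p 0.000403).

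**Figure D4:**
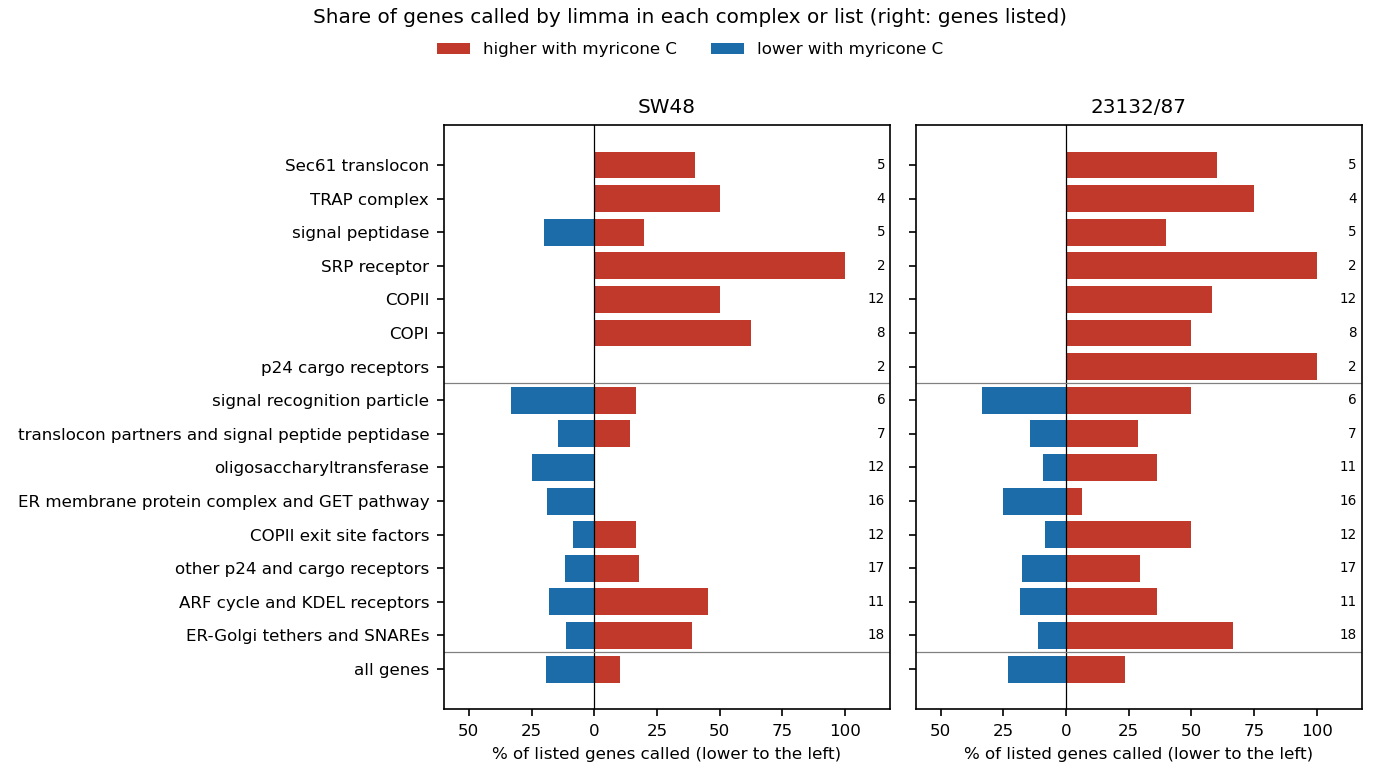
Percentage of listed genes called higher (right of 0) and lower (left of 0) by limma in each complex or pathway list, in SW48 (left) and 23132/87 (right); figures at the right edge are the genes listed, and the bottom bar is all listed genes of the line. Both SRP receptor genes are higher in both lines, and the lower bar of the ER membrane protein complex and GET list is 18.8% in SW48 and 25% in 23132/87, near the 19.2% and 23.2% of all listed genes.

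ER stress genes moved in the same libraries. HSPA5 had 796, 1444 and 1674 in SW48 myricone C libraries, against 324, 398 and 325 in SW48 vehicle libraries, and 1163, 776 and 707 in 23132/87 myricone C libraries, against 239, 239 and 239.7 in 23132/87 vehicle libraries. It rose by 1.84 ± 0.23 in SW48 (adjusted p 0.000313) and by 1.84 ± 0.17 in 23132/87 (adjusted p 2.88e-05). As for most of the 38 genes, SW48 myricone C replicate 1 was the lowest of its group and 23132/87 myricone C replicate 1 the highest of its group. DDIT3, the stress factor CHOP, rose by 4.55 ± 0.29 in SW48 (adjusted p 9.67e-06) and by 4.18 ± 0.19 in 23132/87 (adjusted p 1.25e-06), and ATF4, which acts upstream of it, by 1.83 ± 0.16 in SW48 (adjusted p 5.75e-05) and by 1.19 ± 0.10 in 23132/87 (adjusted p 1.79e-05).

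XBP1, one of the factors known to bind TGACGTGG, moved in opposite directions. Its transcript stood at 60.1, 107 and 106 in SW48 myricone C libraries, against 31.4, 41.9 and 32.2 in SW48 vehicle libraries, and rose by 1.32 ± 0.21 (adjusted p 0.00105). In 23132/87 it stood at 169, 164 and 149 with myricone C, against 196, 243 and 284 with vehicle, and fell by 0.57 ± 0.13 (adjusted p 0.00665). Treated and vehicle libraries were apart in both lines, and the SW48 change exceeded the 23132/87 change by 1.88 ± 0.28 (adjusted p 0.000779). The spliced form of XBP1, which encodes the active factor, is not separated in these gene-level values, and the part of XBP1 in the changes of the 38 genes was not tested.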

How the data were processed

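RNA of 12 libraries, 3 in each of the 4 groups, was made into stranded mRNA libraries with a TruSeq kit, per the labels' protocols. Per the submitters' processing notes, FastQC and STAR (no versions) and GRCh38 were used; counting tool, strand setting and annotation are not stated. The authors deposited 1 table of expression signal per gene and line. This deposited signal is not counts, so read depth is unknown, no counting interval is given, and limma replaced the count test laid out for count tables.

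The scale of analysis was log2(value + 1), that is a pseudocount of 1, and a minimum mean of 1 removed no listed gene. limma 3.58.1 in R 4.3.3, with a mean-variance trend, was fitted to the 6 libraries of each line, and to all 12 for the line-by-treatment term over the 10252 genes that both tables pair by symbol and identifier. Adjusted p-values are Benjamini-Hochberg over all genes tested, with a threshold of 0.05, and errors of changes are limma's moderated standard errors. The scripts were tested on simulated data.

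The 38 genes, the pathway and marker lists and the rule for naming genes were chosen with earlier results of these data known. The rule gives values per library for the 2 members of each complex with the largest called change in each line, for members called in the line difference and for paralogs; of each pathway list it names the 2 genes with the largest called change per line, and HSPA5, DDIT3, ATF4 and XBP1 always. Gene positions and exon overlaps are from GENCODE 29, matched by Ensembl identifier for all 38; promoters are from RefSeq on GRCh38.p14. Alternatives were pseudocounts of 0.1 and 5, quantile, median-centred and pseudogene-free scaling, no filter and a minimum of 10 in 3 libraries, limma without trend or with array weights, 1 fit of 12 libraries, a change of at least 0.5, a replicate block by title number and, added after seeing the data, by column number, and leaving out each library.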

Additional observations from a re-analysis of the deposited data

Results flagged for a closer look

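The line-by-treatment term, the SW48 change minus the 23132/87 change on the log2 scale, passed the limma threshold for 5 of the 38 genes, 13.2% beside 12.8% of all shared genes: SEC63 (-0.62), SSR3 (-0.69), SEC11C (-0.62), SPCS2 (-0.66) and SEC23A (0.61). In the same test the change was lower in SW48 for 5 of the 98 genes of the pathway lists, 5.1% beside 7.43% of all shared genes: TMCO1 (-0.63), DDOST (-0.42), MAGT1 (-0.72), CAMLG (-1.03) and TMED9 (-0.57). None of the 98 had a higher change in SW48, beside 5.34% of all shared genes. Of the ER stress genes, the change was higher in SW48 for ATF4 (0.64) and XBP1 (1.88).

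The terms of SSR3, MAGT1, CAMLG and XBP1 were called whichever library was left out. TMCO1 lost its call without SW48 myricone C replicate 2 (-0.53), SW48 vehicle replicate 3 (-0.57), 23132/87 myricone C replicate 2 (-0.61) or 3 (-0.59), or 23132/87 vehicle replicate 1 (-0.55). DDOST lost it without SW48 myricone C replicate 1 (-0.43), 2 (-0.40) or 3 (-0.42), SW48 vehicle replicate 2 (-0.35) or 3 (-0.43), 23132/87 myricone C replicate 2 (-0.39) or 3 (-0.39), or 23132/87 vehicle replicate 1 (-0.44), 2 (-0.42) or 3 (-0.39). TMED9 lost it without SW48 myricone C replicate 1 (-0.51) or 2 (-0.52), SW48 vehicle replicate 1 (-0.53) or 2 (-0.56), 23132/87 myricone C replicate 1 (-0.54) or 3 (-0.54), or 23132/87 vehicle replicate 3 (-0.51). ATF4 held without SW48 myricone C replicate 1 and lost its call without any other single library, with terms between 0.50 and 0.68.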

How the results depend on the processing

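No called value of the 38 genes changed sign under any alternative. Leaving out 1 library at a time gave 12 to 18 higher and 0 to 2 lower genes in SW48, against 18 and 1 with all libraries, and 17 to 25 higher and 0 to 1 lower in 23132/87, against 23 and 0. For the line difference it gave 0 to 3 higher and 1 to 4 lower genes, against 1 and 4. The lower calls in SW48 were 0 with quantile normalization or with a change of at least 0.5, and 2 without trend, with array weights or in 1 fit of 12 libraries, where COPG2 joined SEC11A. In 23132/87 a change of at least 0.5 left 14 higher genes, since fewer genes can pass it, and array weights added 1 lower gene, SEC23A. For the line difference, array weights gave 3 higher genes, and a pseudocount of 0.1 and median-centred scaling each gave 2 lower ones. The cause of these changes was not tested. SEC61G and SSR4 were called higher in 23132/87 also with quantile or reduced scaling or array weights. COPE was called higher there with the first 2 of these, and TMED2 in SW48 with quantile normalization. The SW48 call of SEC23A was lost without trend. Of the line differences, SEC63 lost its call with a pseudocount of 0.1 and with quantile, median-centred or reduced scaling. SEC11C lost it with a pseudocount of 0.1, median-centred scaling or no trend, and SPCS2 with array weights.

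With the replicate number as a block, SW48 had 16 higher and 1 lower gene, 23132/87 22 and 0, and the line difference 0 higher and 1 lower gene, SSR3. These are the numbers of the sample titles. By them, deviations of same-numbered treated and vehicle libraries correlated at -0.07, -0.18 and -0.14 in SW48 and at -0.24, 0.11 and -0.27 in 23132/87. The columns of the SW48 myricone C libraries carry the numbers 2, 3 and 4, against replicates 1, 2 and 3 in the titles, and the vehicle columns 1, 2 and 3. By column number SW48 has 2 pairs, with correlations of 0.15 and 0.27, and whether either numbering marks shared cultures is not given in the sources used here. A block by column number, chosen after seeing the data, left 10 higher and 1 lower gene in SW48, and 0 higher and 1 lower gene for the line difference, SSR3. It lost the SW48 calls of SSR1, SSR3, SEC11C, SEC13, SEC23A, SEC31A, COPB1 and COPB2 (adjusted p 0.0658 to 0.187), with 1 residual degree of freedom in the SW48 fit. Over all shared genes the block gave 354 higher and 416 lower line differences, against 547 and 762, and array weights gave 888 and 1359. In 23132/87 the stricter filter gave 1658 higher genes, against 2582, over fewer genes tested, and a change of at least 0.5 gave 1712 higher and 1700 lower genes, against 2582 and 2571. Without SW48 myricone C replicate 2, SW48 had 768 higher and 1431 lower genes, against 1170 and 2213. The lower line differences numbered 465 without SW48 vehicle replicate 2 and 504 without 23132/87 myricone C replicate 2, against 762. The smallest called rise of the 38 was 0.39 in SW48 (SEC23A) and 0.32 in 23132/87 (SEC23B), so smaller changes may have been missed.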

Other observations

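Over all listed genes with a RefSeq promoter window and outside the 38, 27 of 104 with TGACGTGG rose in SW48 (26.0%), against 9.86% of 9044 listed genes without it, the 38 included. In 23132/87, 36 of 96 with the element rose (37.5%), against 23.2% of 8699 without it. Called lower were 17 of the 104 and 1811 of the 9044 in SW48, and 21 of the 96 and 2093 of the 8699 in 23132/87. Of 79 genes of the pathway lists with a window, 6 held the element: SRP19, ARF1, GBF1, KDELR3, STX5 and SCFD1. These are descriptions of letters in promoters, with no test.

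The 7SL RNA, the scaffold of the SRP, has no poly(A) tail, and its genes RN7SL1 and RN7SL2 are listed in both tables. RN7SL1 had 11027, 261 and 94.0 in SW48 myricone C libraries, against 418, 397 and 166 in SW48 vehicle libraries, and 64.8, 76.1 and 198 in 23132/87 myricone C libraries, against 96.2, 51.5 and 81.6 in 23132/87 vehicle libraries. Treated and vehicle values overlapped in both lines, and the SW48 extreme was myricone C replicate 1.

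The pseudogene SPCS2P4 had 8.13, 6.25 and 10.7 in SW48 myricone C libraries, against 8.65, 11.7 and 7.19 in SW48 vehicle libraries. In 23132/87 it had 17.4, 11.5 and 8.5 with myricone C, against 7.8, 8.95 and 9.74 with vehicle.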
